A study of Mus musculus with 20 samples.

Results

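The genes described here are Lrpap1 and 5 receptors that its protein chaperones: Lrp1, Lrp2, Lrp8, Vldlr and Sorl1. They were taken by symbol from the annotation of the Affymetrix Mouse Genome 430 2.0 array, and every probe set with one of these symbols alone was kept, which gave 21 probe sets. These are 6 of the 18193 genes with such a probe set. They were chosen by the log2 ratios of IRP2 to control reactions, which were already known to be high for Lrpap1, so these ratios are given as a description. Counts of called probe sets are printed for them beside the share of all probe sets, and nothing is read from those counts.

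RNA was recovered with recombinant IRP2 that carries a His tag and an antibody against the tag (IRP2 reactions), or with the antibody when IRP2 was left out (control reactions). Each tissue had 2 IRP2 reactions and 2 control reactions, giving 20 arrays in 10 groups. Duodenum, liver and spleen RNA came from pools of 4 C57BL6/J mice which had eaten iron-poor food (under 10 mg iron per kg) since weaning, for 21 days. Bone marrow and brain RNA came from pools of 6 C57BL6/J mice aged 8 to 10 weeks on an iron-normal diet. The labels give both sexes, 50 µg of RNA in each reaction and 120 ng of recovered RNA for the arrays. They do not say whether the 2 replicates of a tissue came from separate pools, so the spread between them may be technical.

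Lrpap1 encodes the receptor-associated protein (RAP), which stays in the endoplasmic reticulum, binds newly made receptors of the low-density lipoprotein (LDL) receptor family and keeps ligands off them until they reach the Golgi. Lrp1 is an endocytic and signalling receptor of many cells, among them hepatocytes, macrophages and neurons. Lrp2 (megalin) takes up proteins in absorptive epithelia such as the kidney tubule. Lrp8 and Vldlr are the neuronal receptors of reelin, and Sorl1 is a sorting receptor that moves the amyloid precursor protein between the Golgi and endosomes. IRP2 is an iron regulatory protein that binds a hairpin of RNA called the iron-responsive element (IRE), found in untranslated parts of messages such as those for ferritin and the transferrin receptor.

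In RefSeq annotation of GRCm38.p6, Lrpap1 lies at chr5:35091490-35105699, Lrp1 at chr10:127538157-127621148 and Lrp2 at chr2:69424335-69586029. Lrp8 lies at chr4:107802200-107876840, Vldlr at chr19:27216480-27254231 and Sorl1 at chr9:41964709-42124297. The first 50 transcribed bases of each annotated start were searched, on the transcribed strand, for the letters CNNNNNCAGTG, which are the bulged C and the first bases of the loop of an IRE written as DNA. They occurred in 1 of the 10 windows of these genes, that of Lrp1, and in 520 of 32851 windows of all genes (1.58%). The Lrp1 match is shown because it is the only one among these genes, and the capitals mark the matching letters, on the minus strand at chr10:127621103-127621132:
Lrp1: gtgcgagctCCAGGCCAGTGcactgaggag
The match began at base 26 of the transcript. The windows of Lrpap1 and of the other 4 receptors did not hold these letters, and neither did the 3 windows of Fth1 and Alas2, whose mRNAs are known to carry an IRE. The search was for these letters alone, and pairing of the bases around them into a hairpin was not checked. The rest of each transcript was not searched.

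The defining markers of each tissue were checked on the control arrays, taking for each gene its highest probe set. All 5 measured brain markers were highest in brain, all 5 liver markers in liver and all 6 marrow markers in bone marrow, as were 4 of 5 intestinal markers in duodenum and 4 of 5 lymphocyte markers in spleen. All 4 measured markers of pancreatic acinar cells were highest in duodenum, with a median of 12.1 and 12.2 on the log2 scale there. Array medians lay between 5.65 and 5.71 for duodenum, liver and brain replicate 1, and between 5.39 and 5.55 for spleen, bone marrow and brain replicate 2. Bone marrow control replicate 1 was closer to the spleen arrays (mean Spearman correlation across probe sets 0.908) than the other 3 bone marrow arrays were (0.824 to 0.825). Some of the means and calls below are also given without it. All others that draw on the bone marrow controls include it.

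Lrpap1 had 4 probe sets, and they did not behave alike. Probe sets 1452148_at and 1426697_a_at were higher in both IRP2 reactions than in both controls in all 5 tissues, and 1436609_a_at and 1426696_at in none. Over all tested probe sets, 0.365% were called higher with IRP2 for the mean of the tissues, a share given for scale because these ratios chose the gene. The share of all probe sets whose IRP2 and control values separate in every tissue was not counted. Averaged over the tissues, the log2 ratio of IRP2 to control was 2.26 for 1452148_at (SE 0.13, 4.80-fold) and 1.47 for 1426697_a_at (SE 0.11, 2.77-fold). It was -0.02 for 1436609_a_at (SE 0.17) and -0.06 for 1426696_at (SE 0.18). These SEs come from the fit that leaves out the pairing of replicates. With the replicate pairs as a block the 4 SEs were 0.10, 0.072, 0.075 and 0.065 in the same order. Without the bone marrow control that resembled spleen, the 4 means were 2.37, 1.42, 0.058 and 0.023 in the same order.

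On 1452148_at the 2 IRP2 reactions gave log2 values of 7.40 and 7.45 in duodenum, against 4.72 and 5.19 in the controls. Liver gave 8.01 and 8.03 with IRP2, against 5.74 and 5.75 in controls. Spleen gave 9.10 and 8.77 with IRP2, against 6.45 and 6.33 in controls. These are the 3 tissues of the mice on the iron-poor diet. Here, and in bone marrow and brain below, no IRP2 value came within 1 log2 unit of a control of its tissue. Bone marrow gave 7.20 and 7.37 with IRP2, against 6.02 and 4.98 in controls. Brain gave 9.94 and 10.27 with IRP2, against 7.59 and 8.13 in controls. Of the 10 replicate pairs, bone marrow replicate 1 had the lowest ratio, 1.18, and the other 9 lay between 2.14 and 2.68. The control of that pair is the bone marrow array that resembled spleen. The duodenum controls (percentiles 30.5 and 41.1) and bone marrow control replicate 2 (39.3) lay below the median of their arrays. The fold given above for 1452148_at includes these dim controls.

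On 1426697_a_at the IRP2 reactions of duodenum gave 9.33 and 9.28, against 8.08 and 7.58 in controls. Liver gave 9.78 and 9.77 with IRP2, against 8.84 and 8.60 in controls. Spleen gave 10.33 and 9.85 with IRP2, against 8.19 and 7.98 in controls. As on 1452148_at, IRP2 and control values did not overlap in any of these tissues, nor in bone marrow or brain. Bone marrow gave 9.06 and 9.24 with IRP2, against 8.03 and 8.53 in controls. Brain gave 11.36 and 11.34 with IRP2, against 9.47 and 9.35 in controls. The pair ratios ran from 0.71 in bone marrow replicate 2 to 2.14 in spleen replicate 1, and they were highest in spleen and brain. In every one of the 10 pairs this probe set had a lower ratio than 1452148_at, by 0.14 to 1.68 on the log2 scale.

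The other 2 Lrpap1 probe sets gave no such difference, although both were measured above the middle of the array in most reactions. On 1436609_a_at brain gave 10.62 and 11.73 with IRP2, against 10.91 and 11.76 in controls. Spleen gave 10.41 and 10.35 with IRP2, against 10.32 and 10.48 in controls. In each of these tissues the IRP2 and control values overlapped. The pair ratios of this probe set ran from -0.37 to 0.46, and 5 of 10 were above 0. On 1426696_at they ran from -0.58 in bone marrow replicate 1 to 0.44 in duodenum replicate 2, and 4 of 10 were above 0. The 1426696_at ratio was above 0 in both duodenum pairs and below 0 in both bone marrow pairs.

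Within each replicate pair, 1452148_at exceeded 1436609_a_at by 1.55 to 2.65 in log2 ratio and 1426696_at by 1.76 to 2.74. For 1426697_a_at the excess was 0.61 to 2.18 over 1436609_a_at and 0.97 to 2.14 over 1426696_at. The array annotation assigns 1452148_at, 1426697_a_at and 1426696_at to one and the same deposited sequence, so probe sets for 1 sequence record stood on both sides of this difference. Where in the Lrpap1 transcripts each probe set lies was not analysed here, and the cause of the difference was not tested.

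**Figure D1:**
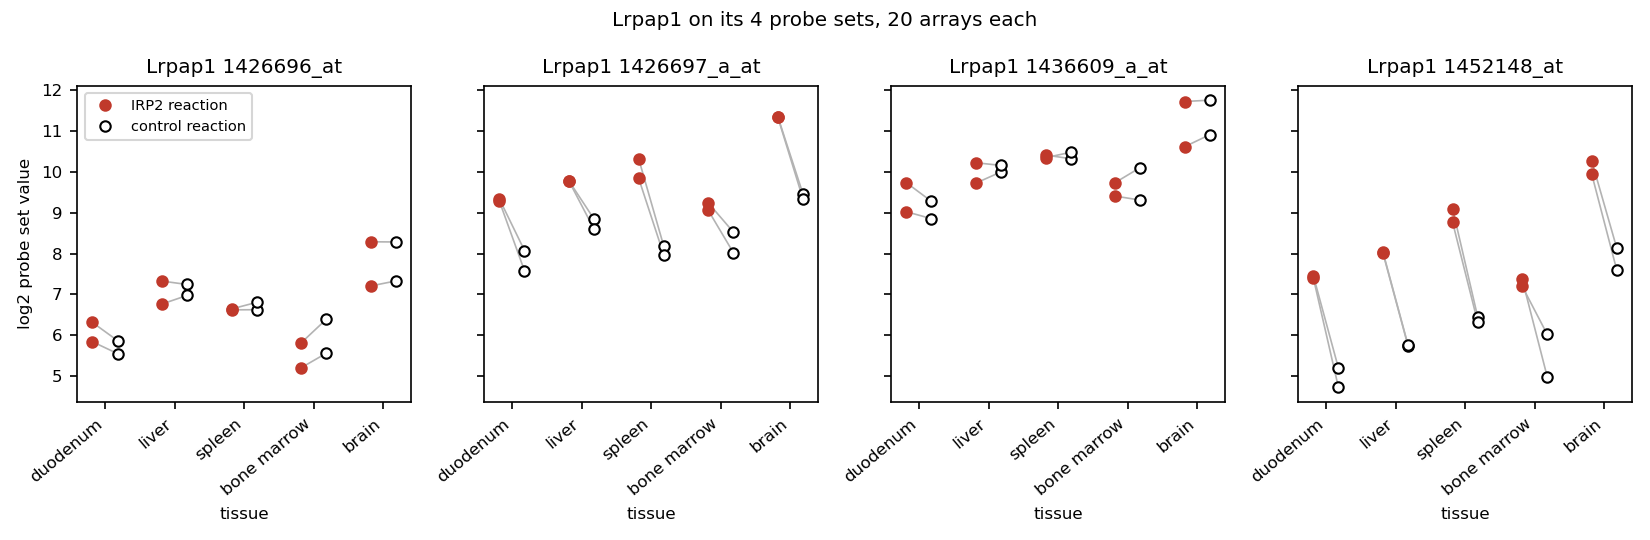
Log2 values of the 4 Lrpap1 probe sets on the 20 arrays, by tissue, with IRP2 reactions (red) left of control reactions (open) and lines joining reactions of the same replicate number. The lines fall from IRP2 to control in every tissue on 1426697_a_at and 1452148_at and run close to level on 1426696_at and 1436609_a_at.

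The 5 receptors had 17 probe sets, and in every tissue their mean ratios lay below that of Lrpap1 1452148_at. The highest in a single tissue were 0.70 for Vldlr 1438258_at in bone marrow, 0.67 for Sorl1 1453003_at in duodenum and 0.55 for Lrp1 1442849_at in bone marrow. Averaged over the tissues, the mean ratios ran from -0.05 to 0.32 with a median of 0.02, and 14 of 17 were above 0. The median of all 30153 probe sets that passed the filter on dim signal was -0.02, and their 5th and 95th percentiles were -0.19 and 0.18. Over the 170 pair ratios of the receptors the range was -0.53 to 0.76, and 92 were above 0. The lowest ratio of 1452148_at in any pair, 1.18, lay above all of these.

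The receptor pair ratio farthest from 0, 0.76, was in bone marrow replicate 1 on Lrp1 1442849_at and uses the control that resembled spleen. The IRP2 reactions of bone marrow gave 6.66 and 6.38, against 5.89 and 6.04 in controls, and the mean ratio over the tissues was 0.25. Without that control the mean was 0.24. The other 4 tissues each had overlapping values on that probe set. On 1448655_at, the second Lrp1 probe set, the mean ratio was 0.01. Its pair ratios ran from -0.45 to 0.34, and those of 1442849_at ran from -0.06 to 0.76. Whether the letters near the start of the Lrp1 transcript bear on these ratios was not tested.

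Sorl1 had the highest receptor mean, 0.32 on 1453003_at (SD of the 10 pair ratios 0.37). Duodenum gave 8.95 and 9.03 with IRP2, against 8.21 and 8.43 in controls. The IRP2 values were above both controls in duodenum, spleen and brain, and the values overlapped in liver and bone marrow. The other Sorl1 probe sets averaged 0.11 (1426258_at) and 0.02 (1460390_at). Without the control that resembled spleen, the 3 Sorl1 means were 0.45 on 1453003_at, 0.27 on 1426258_at and 0.10 on 1460390_at. The mean ratios of Sorl1 1453003_at and Lrp1 1442849_at ranked 418 and 672 among the 30153, whereas Lrpap1 1452148_at and 1426697_a_at ranked 6 and 16.

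The reelin receptors gave mean ratios near 0. For Lrp8 the 3 probe sets averaged from -0.05 to 0.10, with pair ratios between -0.43 and 0.54. For Vldlr the 6 probe sets averaged from -0.05 to 0.04, with pair ratios between -0.53 and 0.70. The 2 highest Vldlr ratios, 0.70 and 0.69, were both in bone marrow on 1438258_at, where IRP2 gave 4.89 and 5.09, against 4.19 and 4.40 in controls. Each of these values lay below the median of its array (5.47 to 5.55). The second of these 2 pairs does not use the control that resembled spleen. Without that control Vldlr 1434465_x_at averaged -0.07, against 0.01 with it, and Lrp8 1442347_at averaged 0.14, against 0.08 with it. Lrp2 averaged from 0.01 to 0.05 on its 3 probe sets, none of which passed the filter. Its control values lay between 3.11 and 5.33, below the median of their arrays throughout.

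**Figure D2:**
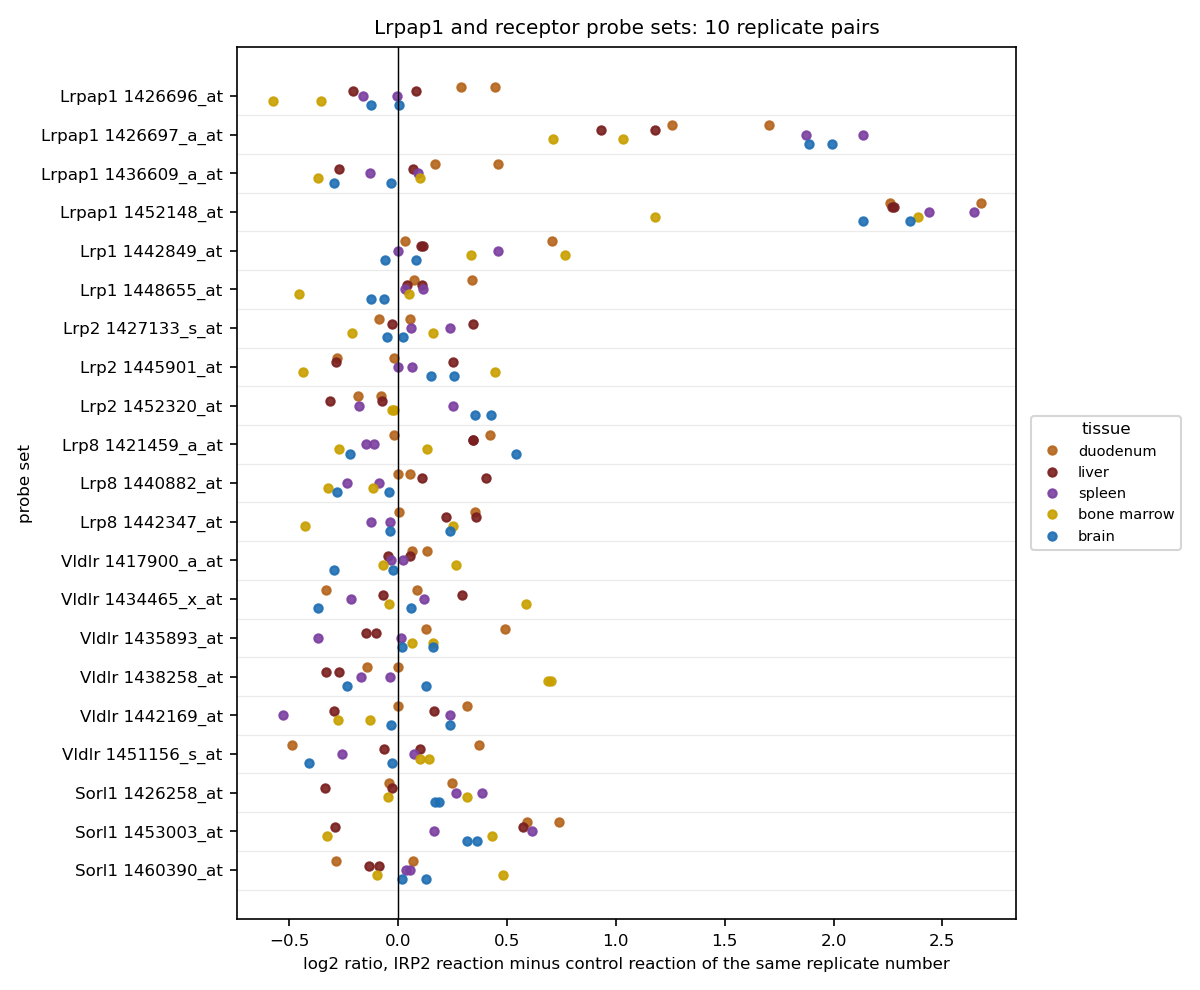
Log2 ratio of IRP2 to control within a replicate number for each of the 21 probe sets, coloured by tissue, with 2 points per tissue. All 10 points of Lrpap1 1452148_at and 1426697_a_at lie to the right of 0, from 0.71 to 2.68, while the receptor points lie from -0.53 to 0.76 on both sides of it.

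Of the 21 probe sets, 16 passed the filter and entered the limma fit of all 20 arrays. The following counts describe the values by which Lrpap1 was chosen and test nothing about it. For the mean over the tissues, 2 of the 16 were called higher with IRP2 (adjusted p under 0.05), both of Lrpap1, beside 0.365% of all tested probe sets, and 0 were called lower, beside 0.00663%. The same 2 were called higher in duodenum (0.073% of all), spleen (0.063%) and brain (0.0597%), and 1452148_at alone in liver (0.0332%). In bone marrow (0.00995%) none was called, and both had an unadjusted p under 0.05. With any one array of the tissue left out, 0 to 1 was called in duodenum, 0 in liver, 0 to 2 in spleen and 1 to 2 in brain. With the replicate pairs as a block both were called in every tissue, beside 0.282% of all in duodenum, 0.292% in spleen, 0.206% in liver, 0.378% for bone marrow and 0.139% for brain. No probe set of these genes was called lower in a tissue. The share of all tested that was lower in brain was 0.00332% by either fit, and with the block it was 0.0133% in duodenum, 0.0133% in liver, 0.0133% in spleen and 0.348% in bone marrow. Of the 12 receptor probe sets, 0 were called in any tissue by either fit. The lowest limma adjusted p among them was 0.0505, for Vldlr 1438258_at in bone marrow with the block, at values below the array medians. Without the block, 1 of the 12 had an unadjusted p under 0.05 in bone marrow, and 0 in the other tissues and in the mean. With the block, 2 had one in the mean, 1 in duodenum, 2 in bone marrow and 0 elsewhere. Of the 4 Lrpap1 probe sets, 3 were higher in duodenum at an unadjusted p under 0.05 with the block. In bone marrow 2 were higher and 1 was lower at that level. The shares of all tested probe sets at that level, and with single arrays left out, are not given. Nothing is read from those counts.

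The control reactions show the RNA recovered without IRP2. The genes were not chosen by the differences of these controls between tissues, although earlier results of these data were known. These differences were tested with limma over the 10 control arrays and all 45037 probe sets. In tissue RNA, fewer cells that make a transcript and less of it per cell cannot be told apart, and recovery without IRP2 need not match the level in the tissue. Brain differs from bone marrow in tissue alone as far as the labels say, but from the other tissues also in diet and age, which cannot be told apart there.

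In brain 13 of the 21 probe sets were higher than the mean of the other 4 tissues and 1 was lower, beside 15.7% of all probe sets called higher and 14.9% called lower. The 13 belonged to Lrpap1, Lrp8, Vldlr and Sorl1. All 4 Lrpap1 probe sets were among them, with log2 differences of 1.43 on 1426696_at (adjusted p = 0.00296), 1.18 on 1426697_a_at (0.00119), 1.52 on 1436609_a_at (0.00146) and 2.21 on 1452148_at (0.000123) in limma's test, and SEs from 0.20 to 0.28. On each of them both brain controls lay above all 8 controls of the other tissues. How many of all probe sets separate in this way was not counted, here or for the receptors below. The call of each held under all 15 alternative settings. The size depended on the brain arrays, since the 1426696_at difference was 0.95 without brain control replicate 2 and 1.91 without brain control replicate 1. The brain controls of 1452148_at were 7.59 and 8.13, against 4.72 to 6.45 elsewhere. Without bone marrow control replicate 1 the 1452148_at difference was 2.34. The 13 were all called higher without that array too, with differences from 0.88 to 3.85, and 15 of the 21 were then called in all, beside 34% of all probe sets. The lowest mean of the 4 Lrpap1 probe sets was in duodenum each time. Without bone marrow control replicate 1 that was not so on 1426696_at, where the other bone marrow control (5.56) lay below the duodenum mean (5.71).

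Vldlr was the receptor with the largest brain difference. On 1435893_at the brain controls were 8.43 and 7.78, against a range of 3.03 to 5.33 with a median of 4.27 in the other 8. That is a log2 difference of 3.88 (SE 0.19, limma adjusted p = 2.11e-07), and no fold is given because the other 8 lay below the median of their arrays. Brain was also higher on 1434465_x_at by 3.53 (3.74e-06), on 1417900_a_at by 2.21 (5.91e-06) and on 1438258_at by 1.66 (0.000296), and on all of these the 2 brain controls stood above the other 8. The 2 remaining Vldlr probe sets, 1442169_at and 1451156_s_at, were not called. The values of 1442169_at in brain were 5.04 and 3.43, more than 1 log2 unit apart. Liver was the second highest tissue of Vldlr on the 4 called probe sets, and bone marrow and spleen were the lowest.

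Lrp8, the other reelin receptor, was higher in brain on 1442347_at, with controls of 6.32 and 6.35, against 3.58 to 4.90 elsewhere (difference 2.19, limma adjusted p = 9.31e-06). On 1440882_at the difference was 0.82 (0.0267), but the brain values of 6.68 and 7.57 overlapped those of bone marrow (7.88 and 7.39) and spleen (7.44 and 7.24). That call was lost in 4 of the 15 alternatives, including the one without brain control replicate 2, where the difference was 0.37. The probe set 1421459_a_at had a difference of -0.40 and was not called (0.0922). It was called lower in brain under 2 alternatives, by 0.40 with the range of array medians as a term (0.0393) and by 0.55 without brain control replicate 1 (0.0323).

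Sorl1 was high in brain, spleen and bone marrow and low in liver. On 1453003_at the brain controls were 10.44 and 10.47, against 10.33 and 10.25 in spleen and 4.94 and 4.73 in liver. The brain difference was 2.15 (limma adjusted p = 0.000197) on 1453003_at, 1.54 (0.0118) on 1426258_at and 0.86 (0.0181) on 1460390_at. On the last 2 the brain values overlapped those of other tissues, and the call was lost without brain control replicate 2, with differences of 1.19 and 0.59. On 1453003_at the brain and spleen controls lay close together, and liver and duodenum had the lowest values.

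Lrp1 was not called in brain on either probe set, with differences of 0.49 and 0.45 and overlapping values. Liver was its highest tissue on both. On 1442849_at the order of the means was liver, brain, duodenum, bone marrow and spleen, where duodenum (6.51 and 7.49) overlapped brain (7.04 and 7.35) and bone marrow overlapped spleen. The only probe set called lower in brain was Lrp2 1445901_at, by 0.51 (limma adjusted p = 0.0286). Its control values were dim throughout (4.11 to 5.33), and the call was lost in 7 of 14 alternatives.

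**Figure D3:**
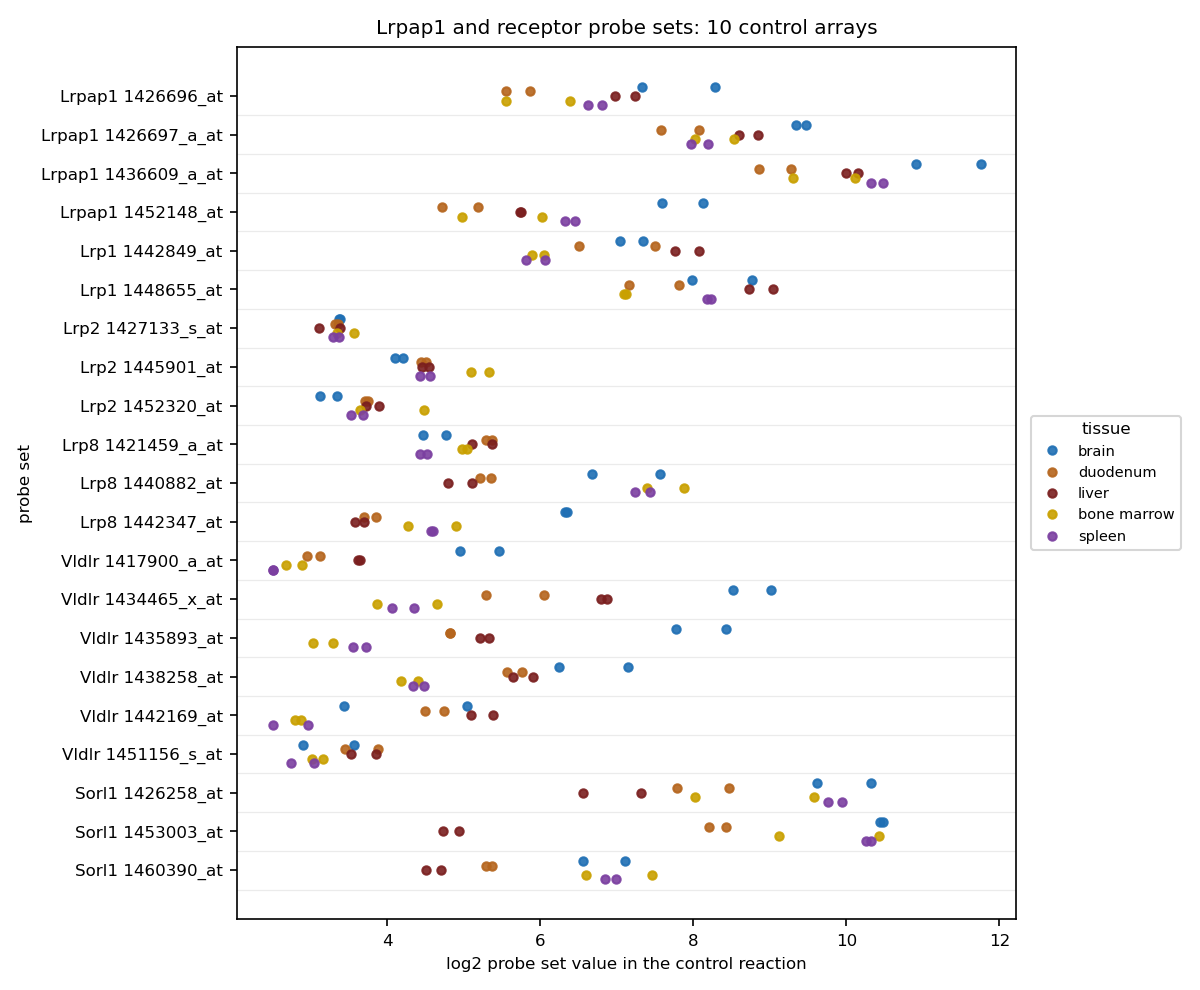
Log2 values of the 21 probe sets on the 10 control arrays, with 2 points per tissue and brain in blue. Brain lies to the right of all other tissues on all 4 Lrpap1 probe sets and on 4 Vldlr probe sets, and liver lies far to the left on Sorl1 1453003_at (4.73 and 4.94).

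Duodenum and liver share diet, age and the range of array medians. In duodenum 1 probe set was higher than in liver and 2 were lower, beside 5.16% and 4.9% of all probe sets. Sorl1 1453003_at was higher, with 8.21 and 8.43 in duodenum and 4.94 and 4.73 in liver, a difference of 3.48 (SE 0.35, limma adjusted p = 9.84e-05) that held under all alternatives. Lrp1 1448655_at was lower in duodenum, with 7.16 and 7.81, against 9.04 and 8.73 in liver (difference -1.40, adjusted p = 0.0137). That call was lost in 3 alternatives. Lrpap1 1426696_at was lower in duodenum by 1.40 too (adjusted p = 0.032), and that call was lost in 7. The other 3 Lrpap1 probe sets had differences from -1.01 to -0.79 and were not called. Among the 15 alternatives, 1426697_a_at (difference -0.89) was called lower in 7, 1436609_a_at in 4 and 1452148_at in 0. Both duodenum values lay below both liver values on all 4 Lrpap1 probe sets. The share of all probe sets for which this holds was not counted. The pancreatic acinar markers moved with this comparison, with medians of 12.1 and 12.2 in the duodenum controls and 7.71 and 7.67 in the liver controls, and their part in it was not tested.

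Bone marrow and spleen share the range of array medians but not diet or age. In bone marrow 1 probe set was higher than in spleen and 1 was lower, beside 4.38% and 14.2% of all. Lrp1 1448655_at was lower in bone marrow, with 7.12 and 7.09, against 8.17 and 8.24 in spleen (difference -1.10, limma adjusted p = 0.0337). Lrp2 1445901_at was higher by 0.72 (adjusted p = 0.0309) at dim values. These calls were lost in 7 of 15 and in 10 of 14 alternatives. Without bone marrow control replicate 1, 7 probe sets were called, 2 higher and 5 lower in bone marrow, beside 30.1% of all probe sets called in either direction, against 18.6% with that array. Lrpap1 1452148_at was then lower by 1.41 (adjusted p = 0.00894), and with that array it was lower by 0.89 (0.0937). The other 4 lower ones were 2 probe sets of Lrpap1 and 2 of Sorl1, and Lrp1 1448655_at was then not called.

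Genes related to RAP and these receptors by family, ligands, trafficking or place in the cell were taken as 5 lists of 42 genes in all, of which 36 had a probe set with their symbol alone and the other 6 were not analysed here. They had 75 probe sets, of which 61 were tested. For the mean over the tissues, 1 of the 61 was called higher with IRP2 and 0 lower, beside 0.365% and 0.00663% of all tested. With the replicate pairs as a block, 1 was called higher and 1 lower, beside 1.07% and 0.146%. Of the 61, 1 was higher and 1 lower at an unadjusted p under 0.05 without the block.

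The called one was Lpl, lipoprotein lipase, which hydrolyses the triglycerides of circulating lipoproteins and is itself taken up by receptors of the family. On 1415904_at its mean ratio was 0.85 (SE 0.11, limma adjusted p = 0.000854), and all 10 pairs were above 0. Liver gave 11.44 and 11.37 with IRP2, against 10.05 and 10.21 in controls. Bone marrow had the smallest ratios, 0.20 and 0.52, with 9.51 and 9.63 in IRP2 reactions and 9.31 and 9.11 in controls. IRP2 values lay above both controls in all 5 tissues. The second Lpl probe set, 1431056_a_at, was too dim for the filter, with control values from 2.79 to 3.62 and a mean ratio of 0.47.

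The other lists held no call without the block. The median mean ratio was -0.02 over 11 probe sets of the other LDL receptor family genes, from -0.18 for Lrp1b to 0.12 for Lrp3. It was -0.00 over the 9 probe sets of the VPS10 receptors related to Sorl1, whose lowest and highest values, -0.12 and 0.14, were both of Sorcs1. It was 0.03 over 18 probe sets of adaptors and trafficking proteins, from -0.28 for Lrpprc, a mitochondrial RNA-binding protein that is no adaptor of these receptors, to 0.18 for Dab2, an endocytic adaptor. For 24 probe sets of ligands the median was 0.05, and the lowest was Pltp, the phospholipid transfer protein, at -0.18. The median was -0.02 over all tested probe sets and -0.006 over all 45037, and the medians of the lists include probe sets that did not pass the filter. The values named for Lrp1b and Dab2 and the lower one of Sorcs1 also came from such dim probe sets. On its other probe sets Dab2 averaged -0.05, 0.11 and 0.08. Lrpprc was at -1.12 in bone marrow and between -0.20 and 0.22 in the other tissues.

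RAP works beside other chaperones of the endoplasmic reticulum, whose 13 probe sets had a median mean ratio of -0.09. Their highest was Hsp90b1 1438040_a_at at 0.23, and their lowest was Calr 1417606_a_at, calreticulin, at -0.43. The Hsp90b1 probe set was at 0.88 in bone marrow, where 1415889_a_at of the same gene was at -0.41, with a mean of -0.10. Calr 1417606_a_at was the probe set called lower with the replicate pairs as a block (limma adjusted p = 0.0218), and it was not called without it. The other Calr probe sets averaged -0.16 and -0.18 and were not called by either fit.

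**Figure D4:**
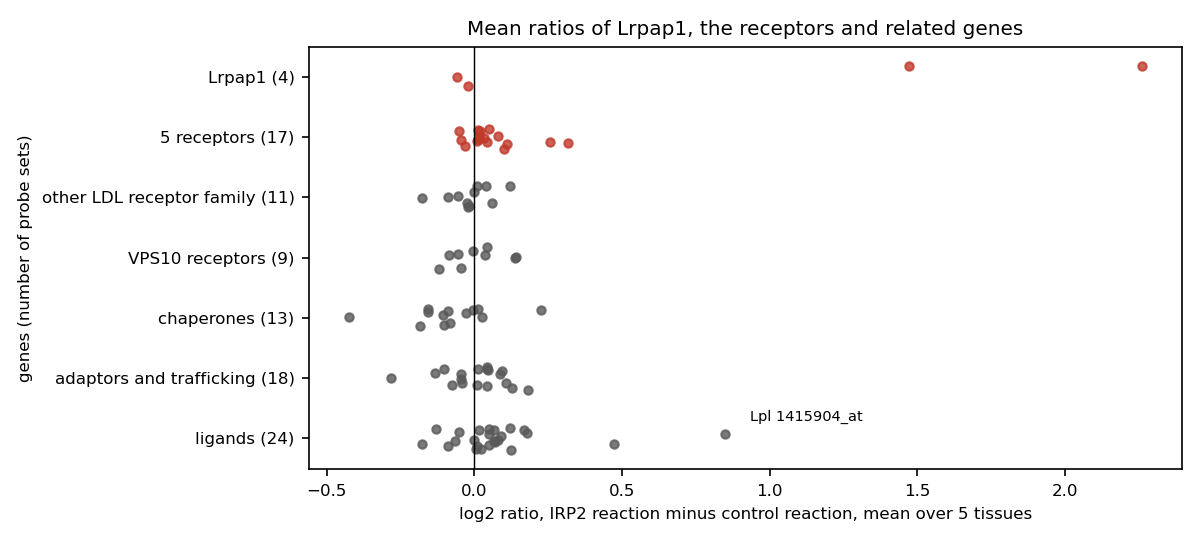
Mean log2 ratio of IRP2 to control over the 5 tissues for each probe set of Lrpap1, of the 5 receptors (both red) and of the related lists (grey), with small vertical offsets so that points do not cover each other. Lrpap1 has 2 points at 1.47 and 2.26, Lpl one at 0.85, and the receptors reach 0.32.

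The genes whose 10 pair ratios were most like those of Lrpap1 1452148_at were ranked by the root mean square of the differences in log2 ratio. Nt5c, a nucleotidase, was closest at 0.352, with a mean ratio of 1.95 and a lowest pair of 0.74. Egr2, an immediate early transcription factor, followed at 0.703, Cxcl16, a chemokine, at 0.711, Tfrc, the transferrin receptor, at 0.712 and Fam98b at 0.734. Lrpap1 1426697_a_at stood at 0.947, farther than these 5, and the other Lrpap1 probe sets stood at 2.31 and 2.35. The 10 pairs come from 5 tissues, and the measure by its construction picks genes with a similar mean ratio.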

How the data were processed

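The deposited table holds 1 log2 value per probe set and array. Per the series' design text and the submitters' processing notes, the authors made them with RMA or with MAS5 in GCOS followed by quantile normalization; versions, and which method made which array, are not given in the sources used here. Contrasts of IRP2 and control were taken within tissues, since array medians differed between tissues. Of 45101 probe sets, 64 Affymetrix controls were left out, and for the IRP2 comparison 30153 were tested whose value reached the median of their array on at least 2 of 20 arrays. Group means were fitted with limma 3.58.1 (R 4.3.3) (10 residual degrees of freedom, prior 5.34), and for control levels a mean per tissue over the 10 control arrays, without that filter (5 residual degrees of freedom, prior 4.73). Benjamini-Hochberg adjustment ran over every probe set in a fit, and a probe set was called where its adjusted p lay under 0.05. The number of arrays, 2 per group, limits the precision.

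Arrays of one replicate number deviated together from their group means (duodenum r = 0.676, liver 0.565, spleen 0.385, bone marrow 0.251, brain 0.923), so the numbers were taken as pairs and also fitted as a block. On simulated data with 30153 probe sets, the fit of the mean IRP2 ratio recovered 93 of 100 changes of 1 log2 unit and 99 of 100 of 2, with 17 false calls. With 45037 probe sets the brain level fit recovered 31 and 91 of 100, with 7 false calls. The simulated noise was independent between arrays, without the shared deviations above, and each IRP2 change was equal in all tissues. These figures therefore need not hold for the data. Probe sets were named from the platform annotation, with RefSeq coordinates and start windows of GRCm38.p6. All probe sets of the 6 genes are described; a listed gene is named where it was called or was the highest or lowest of its list, and the 5 genes most like Lrpap1 1452148_at by a fixed measure. The genes, lists and tests were chosen with earlier results of these data known. Other scalings, filters, blocks and left-out arrays were tried.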

Additional observations from a re-analysis of the deposited data

Results flagged for a closer look

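Some receptor probe sets had both IRP2 values above both controls in one tissue and below both in another, and none of these differences between tissues was tested. The share of all probe sets that do so was not counted, so nothing is read from how many are named here. All 3 Lrp8 probe sets did so for liver and spleen. The mean ratio of 1421459_a_at was 0.34 in liver and -0.13 in spleen, and that of 1440882_at was 0.26 in liver and -0.16 in spleen. On 1442347_at it was 0.29 in liver and 0.18 in duodenum, and -0.081 in spleen. Vldlr 1438258_at averaged 0.70 in bone marrow, with -0.30 in liver and -0.10 in spleen. Lrp2 did so at dim values: 1445901_at averaged 0.20 in brain and -0.15 in duodenum, and 1452320_at averaged 0.39 in brain, with -0.13 in duodenum and -0.19 in liver. The liver controls of Lrp8 were dim on all 3 probe sets, between 3.58 and 5.37.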

How the results depend on the processing

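The counts of called probe sets depended on the setting in single tissues and not in the mean over tissues, which stayed at 2 under every alternative tried. With the replicate pairs as a block the liver count was 2 and the bone marrow count 2, and with quantile normalization the duodenum count was 1 and the bone marrow count 1. For quantile normalization and for left-out arrays, the share of all tested probe sets is not given, so nothing is read from these IRP2 counts. Leaving out 1 array at a time gave counts of 2 to 2 for the mean, 0 to 1 in duodenum, 0 to 0 in liver, 0 to 2 in spleen, 0 to 2 in bone marrow and 1 to 2 in brain. Duodenum had 0 without IRP2 replicate 2 or control replicate 1, spleen 0 without IRP2 replicate 1 or control replicate 2, and liver 0 without any one of its arrays. Bone marrow had 1 without control replicate 1 and 2 without control replicate 2, and brain 1 without IRP2 replicate 2 or control replicate 1. For control levels it gave 12 to 15 for brain (beside 26% to 42.9% of all probe sets), 1 to 6 for duodenum against liver (6.02% to 12.2%) and 0 to 7 for bone marrow against spleen (3.41% to 30.1%), the 7 without bone marrow control replicate 1. Duodenum against liver had 6 calls with all 20 arrays and the pairs as a random replicate block, 6 with the range of array medians as a term and 5 with quantile normalization (11.8%, 12% and 12.6% of all). Bone marrow against spleen had 1 with the random replicate block (24.4% of all) and 1 with centred arrays (19.3%). It had 1 with the filter on dim signal (27.4%) and 3 with the range of array medians as a term (29.9%). With quantile normalization it had 0 (14.4%), and 5 at an unadjusted p under 0.05, limma being the only tool run. The mean ratio of Lrpap1 1452148_at lay between 2.16 and 2.37 without single arrays. The same alternatives were applied to its other 3 probe sets after the data were seen, and 1426697_a_at lay between 1.42 and 1.52. No called difference changed sign, and the causes of the changed counts were not tested. In the IRP2 comparison the block changed no call of these genes other than those given here and in the report. Over control levels, the random replicate block called Lrp2 1452320_at lower in brain (-0.57, limma adjusted p = 0.0369) in place of Lrp2 1445901_at. In duodenum against liver it added Lrpap1 1426697_a_at (-0.89, 0.0167), Lrp1 1442849_at (-0.91, 0.0463) and Vldlr 1434465_x_at (-1.16, 0.0215), and in bone marrow against spleen it lost Lrp2 1445901_at.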
